A study of Mus musculus with 6 samples.

Results

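Genes that interferons switch on, and the genes that load peptides onto major histocompatibility complex class I molecules, were read across a time course of muscle differentiation and in lines carrying a hairpin against Rp58. The set was a list of 47 symbols, of which 45 were each read by at least 1 probe set paired with that symbol alone, out of 18194 genes read in this way. Where a gene had several such probe sets, the brightest by its mean over all 6 arrays was read; 25 of the genes had 1 probe set and 20 had several. Isg15 and Ifi44 are not analysed here. The rule names genes and uses no measured difference.

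The cells were C2C12, mouse myoblasts that stop dividing and fuse into myotubes in low serum, measured on an Affymetrix whole-genome array. Parental cells were sampled in growth medium with 10% fetal bovine serum, at day 0 just after confluent cells were moved to medium with 2% horse serum, and at days 2 and 4 in that medium. Stable transfectants, kept in 500 µg/ml G418 for 2 weeks, were sampled at day 0: one line carried a short hairpin RNA against Rp58 (shRp58), and the other a control that the labels call both a LacZ vector and a control hairpin. No label says whether either line was a pool or 1 clone. Each group was 1 array, so no difference below has an error, none was tested, and a difference of any size is one between 2 arrays. Values are log2 units, so a difference of 1 is 2-fold, and the 2 stable lines lie on another scale than the time course: the median of all probe sets was 8.26 to 8.27 on the 4 time-course arrays and 7.15 on both stable-line arrays.

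Interferons are secreted proteins that bind cell-surface receptors and, through Jak kinases, switch on gene expression. A complex that holds Stat2 and Irf9 binds the interferon-stimulated response element (ISRE) in the promoters of antiviral genes, while interferon gamma acts mainly through the gamma-activated site (GAS). The induced proteins sense, bind, degrade or edit viral RNA, tag or trim other proteins, or build up the class I pathway, in which the immunoproteasome cuts peptides, Tap carries them into the endoplasmic reticulum, tapasin helps to load them, and B2m forms the light chain of the class I molecule. Muscle cells are not immune cells, but myoblasts carry interferon receptors and respond to interferons, and muscle fibres in inflammatory myopathies show class I molecules and interferon-induced proteins.

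The labels fitted the markers of muscle cells. All 5 myoblast markers lay above the array median on all 6 arrays. The summed level of 6 myotube markers was 12.70, 15.30, 16.76 and 17.04 over the time course, and 15.74 and 14.79 in the control-vector and shRp58 lines; that of 4 markers of dividing cells was 14.69, 14.49, 12.42 and 11.63, and 12.72 and 13.60. Of 8 leukocyte markers, Ptprc, Cd68, Itgam and Cd79a were below the array median on all 6 arrays, and Csf1r, Adgre1, Cd14 and Cd3e were above it on all 6. Of 4 endothelial markers, Pecam1, Cdh5 and Tek were below it and Kdr above it on all 6, and of 3 adipocyte markers Adipoq was below it and Cebpa above it on all 6, with Pparg below it on 1. Their summed levels were 11.88 to 12.11, 9.91 to 9.97 and 10.22 to 11.15 over the time course. Zbtb18, the current symbol of Rp58, read 11.18, 11.88, 12.86 and 13.06 over the time course, and its level was 11.69 in the control-vector line and 11.16 in the shRp58 line, a difference of -0.53.

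The promoters show which genes hold the letters that the interferon-activated factors bind. RefSeq windows of the 250 bases before the start site (build GRCm38.p6) were at hand for 35 of the 45 genes. The ISRE core, GAAA, any 2 bases and GAAA on either strand, stood in 13 of these 35 genes (37.1%), against 3.13% of all array genes with a window: B2m, Bst2, Gbp2, Gbp3, Gbp7, Ifit1, Ifit3, Igtp, Irgm1, Oas1a, Oas3, Rsad2 and Stat2. Counted by window, as some genes have several start sites, it stood in 30.2% of 43 windows against 2.98% of all 32851 promoters of that length. The GAS core, TTC, any 3 bases and GAA, which reads the same on both strands, stood in 9 of the 35 genes (25.7%) and in 20.9% of the windows, against 7.02% of all promoters; 4 genes held both. A match describes the letters only, and a gene without one may hold a site outside these windows. The stretches below run to the base before the start site, 5′ to 3′ along the gene, with ISRE cores in capitals and GAS cores left in lower case; overlapping matches form one run. They were chosen to set genes that were high at day 2 of differentiation (Ifit1, Ifit3, Bst2, Igtp, Irgm1 and Gbp2) beside 1 with the same letters that was level over the time course (Rsad2) and 1 that stood out in the stable lines (Oas1a).
Ifit1: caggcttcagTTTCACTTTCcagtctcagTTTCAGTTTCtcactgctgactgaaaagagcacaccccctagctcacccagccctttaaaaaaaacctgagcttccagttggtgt
Ifit3: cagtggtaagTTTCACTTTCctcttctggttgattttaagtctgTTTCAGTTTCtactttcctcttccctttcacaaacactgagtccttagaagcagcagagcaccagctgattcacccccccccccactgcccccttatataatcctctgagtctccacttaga
Bst2: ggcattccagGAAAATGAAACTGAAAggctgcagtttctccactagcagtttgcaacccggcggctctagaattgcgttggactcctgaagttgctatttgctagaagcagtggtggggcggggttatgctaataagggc
Igtp: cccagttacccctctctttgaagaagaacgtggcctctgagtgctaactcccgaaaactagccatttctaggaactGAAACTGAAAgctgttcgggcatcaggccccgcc
Irgm1: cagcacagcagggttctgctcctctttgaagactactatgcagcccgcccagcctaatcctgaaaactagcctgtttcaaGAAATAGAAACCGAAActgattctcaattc
Gbp2: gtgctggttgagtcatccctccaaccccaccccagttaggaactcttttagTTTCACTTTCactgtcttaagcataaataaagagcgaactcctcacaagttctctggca
Rsad2: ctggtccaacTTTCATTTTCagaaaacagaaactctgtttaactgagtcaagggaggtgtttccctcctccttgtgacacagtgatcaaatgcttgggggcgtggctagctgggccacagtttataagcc
Oas1a: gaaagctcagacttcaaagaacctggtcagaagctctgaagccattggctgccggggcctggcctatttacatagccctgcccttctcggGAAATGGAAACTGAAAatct

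The first of them lies at chr19:34640775-34640888, forward strand (Ifit1). The Ifit3 stretch is chr19:34583363-34583528, forward strand, and that of Bst2 is chr8:71537473-71537612, reverse strand. Igtp and Irgm1 were read from chr11:58199446-58199555, forward strand, and from chr11:48871421-48871530, reverse strand. The Gbp2 stretch is chr3:142620553-142620662, forward strand, that of Rsad2 is chr12:26456453-26456582, reverse strand, and that of Oas1a is chr5:120907526-120907635, reverse strand. Ifit1 and Ifit3 each hold 2 separate cores, and in Bst2, Irgm1 and Oas1a 2 cores overlap by 4 bases. The position differs: the core nearest the start site begins 14 bases before it in Oas1a, 24 in Irgm1 and 34 in Igtp, and 122 in Ifit3 and 124 in Bst2.

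Position against the array median differed across the set. On all 6 arrays, 22 of the 45 genes lay above the array's own median of all probe sets and 6 lay below it (Mx1, Gbp3, Tap1, Psmb9, Cmpk2 and Iigp1). The other 17 crossed it, and 13 genes were below it on all 4 time-course arrays. The shares of all genes for these counts were not computed. By mean over the 6 arrays, 31 of the 45 members reached the overall median of 7.95, as did 11486 of all 18194 genes. Reading the brightest probe set of a gene favours a place above a median of all probe sets. No detection calls were used, so sizes and order are not exact for genes near or below the median. A level is read here against the same gene on other arrays only, since probe sets differ in how strongly they bind.

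Growth medium was set against day 0 to ask what confluence and the change of medium went with. No member was 2-fold apart in either direction, against 2.13% of all genes higher and 0.258% lower at day 0 (387 and 47 genes; 277 and 74 after quantile normalization within the time course). Of the 45 members, 29 were above 0, or were higher at day 0, against 53.2% of all genes, and the median difference was 0.11 against 0.02. Past 1.5-fold lay 5 members, all higher, against 8.07% of all genes: Xaf1 (0.71), Tapbp (0.70), Ifit2 (0.69), Ifit1 (0.65) and Oasl2 (0.59). These shares lie near those of all genes. For Xaf1, a further probe set gave -0.21 in this comparison, so its value here depends on the probe set read. All 5 antigen presentation members were higher at day 0 on the probe sets read, although the 3 further ones for Tap1 were lower (-0.50 to -0.092), with Tapbp at 10.44 in growth medium and 11.14 at day 0, and the median of these 5 was 0.37. Myotube markers were also higher at day 0, all 6 by over 2-fold, and their part in the result was not tested.

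Day 2 was the high point of the course. Of the 45 members, 30 had their highest value of the 4 time-course arrays at day 2, against 18.3% of all genes; 7 were highest in growth medium, 6 at day 0 and 2 at day 4. Against day 0, 6 members were at least 2-fold higher at day 2 and none was 2-fold lower, where 2.02% of all genes were higher and 2.19% lower by that much. Those 6 were Ifit1 (3.38-fold), Ifi27l2a (2.79-fold), Irf9 (2.27-fold), Oasl2 (2.24-fold), Ifit3 (2.23-fold) and Xaf1 (2.12-fold). At 1.5-fold the count was 15 higher and none lower, against 5.18% of all genes higher; when the probe sets of a gene were averaged it was 11, without Dtx3l, Gbp2, Parp14 and Rtp4. In all, 35 members were above 0, against 50% of all genes, and the median difference was 0.24 against 0.00. Among the brighter genes, whose mean value was at least the overall median of 7.95, 2.62% were 2-fold higher at day 2; Ifit1 and Oasl2 lie outside that range, and the other 4 lie within it. Since the RNA came from whole cultures, fewer cells of a type and less RNA per cell cannot be told apart in this or any later comparison.

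**Figure D1:**
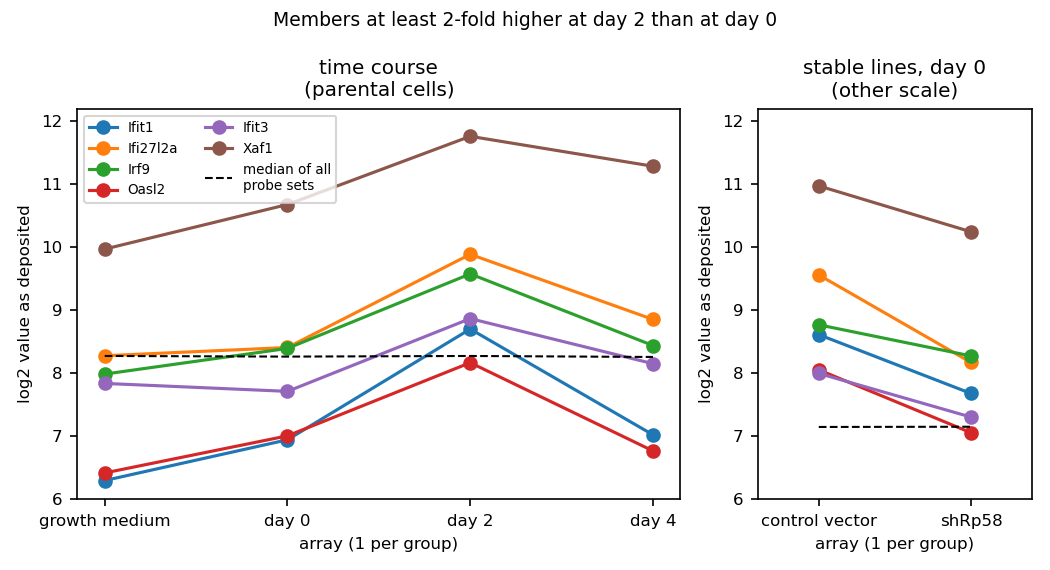
Log2 values as deposited (vertical axes) of the 6 members at least 2-fold higher at day 2 than at day 0, on the 4 time-course arrays (left) and the 2 stable lines (right), 1 array per point, with the median of all probe sets as a dashed line. Each of the 6 lines has its highest time-course point at day 2, and each is lower in the shRp58 line than in the control-vector line.

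At day 4 members lay on both sides of their day 0 values, with differences from -0.94 to 0.80. Of the 6 genes 2-fold higher at day 2, Ifit1 (0.08) and Irf9 (0.05) lay near day 0 and Oasl2 (-0.24) below it. Xaf1 (0.61), Ifi27l2a (0.45) and Ifit3 (0.44) were still above it. Set against day 2, 38 of the 45 members were lower at day 4, against 53.6% of all genes below 0, with a median of -0.45 against -0.02. By 2-fold or more, 4 were lower (Ifit1, Oasl2, Irf9 and Ifi27l2a) and none higher, where 0.616% of all genes were lower and 0.61% higher; among the brighter genes 0.845% were lower. After quantile normalization within the time course Ifi27l2a was just short of that, at -0.99, and 3 remained. At 1.5-fold, 13 were lower and none higher, against 3.17% of all genes lower, or 10 on the mean of probe sets. Those same 4 genes stood at least 2-fold above both day 0 and day 4 at day 2, as did 21 of all 18194 genes (0.115%). Between day 4 and day 0 no member was 2-fold apart, against 2.89% of all genes higher and 4.22% lower, 22 were above 0 against 48.5% of all genes, and the median difference was near 0. The steps to and from day 2 share the day 2 array, so they are not independent of each other. Myotube markers, in contrast, had their highest summed level at day 4 and markers of dividing cells their lowest, and their part in the result was not tested.

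**Figure D2:**
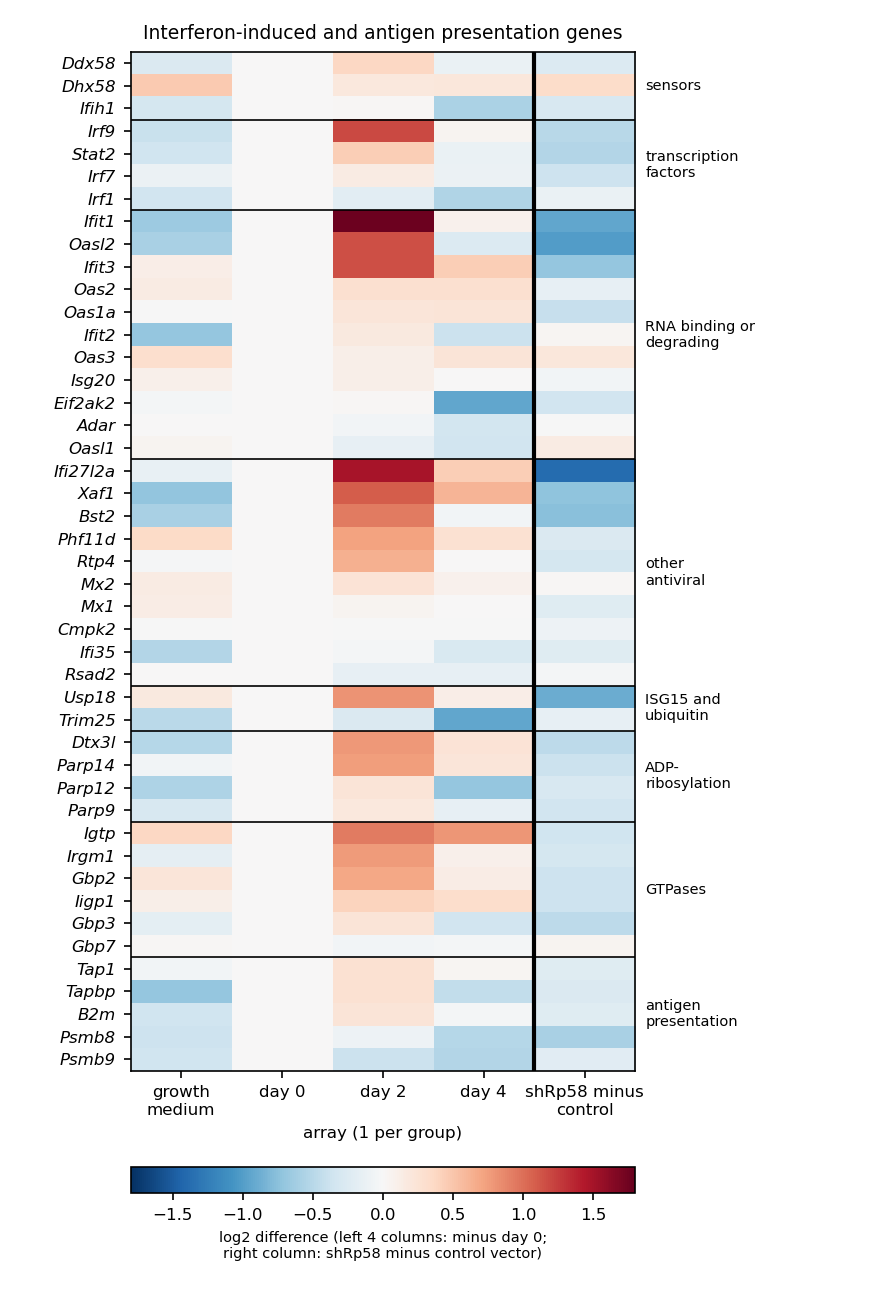
Log2 differences of the 45 members by role: the left 4 columns give each time-course array minus day 0, and the right column shRp58 minus control vector, with red for higher and blue for lower. The day 2 column is mostly red (35 of 45 above 0), the day 4 column is mixed (22 above 0), and the right column is mostly blue (39 below 0).

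The sensors of viral RNA in the cytoplasm varied little on the probe sets read. Ddx58, which encodes RIG-I, read 10.02, 10.28, 10.65 and 10.16 in growth medium and at days 0, 2 and 4. Ifih1, a sensor of long double-stranded RNA, read 8.02, 8.34, 8.35 and 7.77. Dhx58, a relative that modulates both, read 9.47, 8.99, 9.18 and 9.19 and was highest in growth medium. None of the 3 was 1.5-fold apart in the steps shown, and Ddx58 was the one with the largest day 2 difference (0.38). The 2 further probe sets for Ddx58 gave 0.77 and -0.38 at that step and -0.74 and -0.30 from day 2 to day 4, so its course depends on the probe set.

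Among the transcription factors, Irf9, the DNA-binding subunit of the complex on the ISRE, was the one past 2-fold. Irf9 read 7.99, 8.39, 9.58 and 8.44 over the 4 arrays, so day 2 stood above the others by more than 1 unit. Stat2, its partner, read 9.21, 9.56, 10.004 and 9.44, with the same array highest but a difference of 0.44. Irf7, which amplifies type I interferon production, read 6.85, 6.96, 7.10 and 6.85 and stayed below the array median on all 4. Irf1, a factor under a GAS-bearing promoter, was highest at day 0, at 11.43, 11.77, 11.58 and 11.23. The 4 factors thus did not share one course, although 3 of them were highest at day 2.

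The effectors that bind or degrade RNA held the largest day 2 difference and also some of the flattest genes. Ifit1, which binds viral RNA by its cap, read 6.29, 6.94, 8.70 and 7.02, and was below the array median on every time-course array but day 2. Ifit3, which stabilises Ifit1 complexes, read 7.84, 7.71, 8.87 and 8.15. Ifit2, of the same family, read 8.39, 9.08, 9.26 and 8.70, so its day 2 value lay close to day 0 (0.18). Oasl2, an oligoadenylate synthetase relative, read 6.42, 7.005, 8.17 and 6.77, whereas its paralogue Oasl1 read 8.47, 8.42, 8.26 and 8.07. Only day 2 stood out for Oasl2, and no array did for Oasl1. The oligoadenylate synthetases proper, whose product switches on RNase L, differed by 0.22 (Oas1a), 0.29 (Oas2) and 0.11 (Oas3) between day 2 and day 0. Isg20, an RNA exonuclease, read 9.14, 9.05, 9.15 and 9.05, with a range over the 4 arrays of 0.11. Eif2ak2, the kinase PKR that halts translation on double-stranded RNA, was level up to day 2 and lowest at day 4, at 8.91, 8.94, 8.96 and 8.01. Its further probe sets were lower at day 2 than at day 0 (-0.31 and -0.15). They gave -0.35 and -0.39 from day 2 to day 4, against -0.95 on the one read. Adar, which edits double-stranded RNA, read 11.18, 11.17, 11.12 and 10.84. Its further probe sets were higher at day 0 than in growth medium (0.75 and 0.39). With shRp58 each of them gave -0.32, against -0.013 on the one read. Of these 11 genes 6 were highest at day 2 on the probe sets read, with a median day 2 difference of 0.18.

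The remaining antiviral effectors were led by Ifi27l2a, a small interferon-induced protein, at 8.28, 8.41, 9.89 and 8.85. Xaf1, which promotes cell death, read 9.97, 10.68, 11.76 and 11.29 and kept part of its day 2 height at day 4. Its day 2 difference of 1.08 was 0.84 when its probe sets were averaged, under 2-fold. Bst2, tetherin, which holds budding virus at the cell surface, read 7.80, 8.38, 9.31 and 8.33, just under 2-fold higher at day 2 (1.91-fold). Phf11d, a zinc finger protein, read 7.33, 6.98, 7.70 and 7.26, and Rtp4, a chaperone of membrane receptors, read 8.96, 8.99, 9.63 and 8.99. All 5 were highest at day 2 on the probe sets read; a further one for Rtp4 gave -0.14 between day 2 and day 0. The other 5 were nearly level from day 0 to day 2: Mx1 (0.049) and Mx2 (0.25), dynamin-like proteins that trap virus, Cmpk2 (-0.0085), a nucleotide kinase, Ifi35 (-0.029) and Rsad2 (-0.15), viperin, which makes a chain-terminating nucleotide. Mx1 and Cmpk2 were below the median on all 6 arrays, while Rsad2, at 9.08, 9.06, 8.91 and 8.92, was not.

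Usp18 removes Isg15 from proteins and damps the type I receptor, and Trim25 is a ubiquitin ligase that acts on RIG-I. Usp18 read 7.42, 7.25, 8.07 and 7.38, highest at day 2. Trim25 read 10.34, 10.82, 10.56 and 9.88, highest at day 0 and lowest at day 4. The pair thus did not share a course, and Usp18 lay below the array median on all 4 arrays.

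The genes of ADP-ribosylation were all highest at day 2 on the probe sets read. Dtx3l, a ubiquitin ligase that works as a pair with Parp9, read 9.09, 9.60, 10.38 and 9.85. Parp9 itself read 9.31, 9.61, 9.79 and 9.47. The transferase genes Parp14 and Parp12 read 7.35, 7.40, 8.15 and 7.61, and 9.96, 10.51, 10.74 and 9.81. Day 2 exceeded day 0 by 0.78 for Dtx3l and 0.76 for Parp14, past 1.5-fold, and by 0.19 for Parp9 and 0.24 for Parp12, short of it. A further probe set gave 0.37 for Dtx3l and 0.066 for Parp14, and neither gene passed 1.5-fold on the mean of its probe sets (0.58 and 0.41). The further one for Parp14 was highest in growth medium, at 6.75 against 6.69 at day 2.

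The interferon-induced GTPases, which attack the vacuoles of intracellular pathogens, were highest at day 2 in 5 of 6 cases. Igtp read 9.41, 9.03, 9.96 and 9.83, and day 4 lay close to day 2 (-0.13). Irgm1, which regulates the other GTPases of its family, read 10.96, 11.11, 11.88 and 11.20. Iigp1 read 7.39, 7.29, 7.69 and 7.61, below the array median throughout. Igtp and Irgm1 differed at day 4, where Irgm1 was back near day 0 and Igtp was 1.74-fold above it. Of the guanylate-binding proteins, Gbp2 read 7.75, 7.54, 8.23 and 7.67, Gbp3 read 6.39, 6.56, 6.79 and 6.22 and Gbp7 read 8.39, 8.37, 8.33 and 8.34. Gbp2 was the one of these 3 past 1.5-fold at day 2, and its further probe set gave 0.34, short of it, while that for Gbp7 gave 0.46. The probe set read for Gbp2 is of a type whose probes can bind related transcripts, and Ifit3, Oas1a, Phf11d, Ifi27l2a and the Gbp genes have close relatives in the mouse genome, so their signal may hold that of a relative.

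None of the 5 antigen presentation genes was 1.5-fold apart between day 0 and day 2. Tapbp passed 1.5-fold in the step before (0.70) and, on the probe set read, in the step after (-0.72). A further probe set for it gave -0.039 in that later step. B2m read 13.73, 14.09, 14.32 and 14.06 and Tapbp, tapasin, 10.44, 11.14, 11.42 and 10.70. Tap1, the transporter subunit, read 7.41, 7.47, 7.75 and 7.50. The 3 were highest at day 2, by 0.23, 0.28 and 0.28 over day 0. The immunoproteasome subunits Psmb8 and Psmb9 were highest at day 0, at 7.35, 7.73, 7.64 and 7.22 and at 7.09, 7.45, 7.06 and 6.92. A further probe set for Psmb8 read 4.71, 4.72, 4.85 and 4.68, highest at day 2. All 5 genes were lower at day 4 than at day 2 on the probe sets read, with a median of -0.26. A further probe set for Tap1 was higher in that step (0.069).

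Among genes that lie side by side, some had like day 2 differences and others did not. In the RefSeq gene table, 22 of the members fell into 8 runs in which each start lay within 500 kb of the next. In the Ifit run on chromosome 19, the day 2 differences were 1.76 for Ifit1, 1.16 for Ifit3 and 0.18 for Ifit2. In the Gbp run on chromosome 3 they were 0.69 for Gbp2, 0.23 for Gbp3 and -0.043 for Gbp7. Oasl2 and Oasl1, next to each other on chromosome 5, had day 2 differences of 1.16 and -0.15. The run of Parp14, Dtx3l and Parp9 on chromosome 16 read 0.76, 0.78 and 0.19. Values lay closer together in the run of Oas2, Oas3 and Oas1a, also on chromosome 5 (0.29, 0.11 and 0.22), for Mx1 and Mx2 (0.049 and 0.25) and for Rsad2 and Cmpk2 (-0.15 and -0.0085). Tap1 and Psmb9, which start close together on opposite strands of chromosome 17, read 0.28 and -0.39.

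Genes with and without an ISRE core overlapped widely. The 13 genes with a core had a median day 2 difference of 0.44, and a range from -0.15 (Rsad2) to 1.76 (Ifit1). The 22 without one had a median of 0.12, and a range from -0.39 (Psmb9) to 1.18 (Irf9). Past 2-fold were 2 of the 13 (Ifit1 and Ifit3) and 3 of the 22 (Irf9, Oasl2 and Xaf1). The first step ran the other way, with a median of 0.01 with a core and 0.35 without. Rsad2, which has a core, was nearly level over the course, as was Gbp7 on the probe set read but not on the other one, while Irf9, Oasl2 and Xaf1 have no core in their windows.

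The pathway upstream was read from lists of its other genes. Of 14 interferons and cytokines, 11 were matched. Ifnb1, the interferon that fibroblast-like cells make first, read 6.75, 6.68, 6.78 and 6.85 and stayed below the array median on all 6 arrays, as did Ifng, Ifna4, Ifna5 and Ifna11. The other matched interferons did not: Ifna2, at 8.94, 8.42, 8.94 and 9.15, was above it on all 6, and Ifna1 was below it on 1. No interferon was 2-fold apart in any comparison. The 3 of the list that were 2-fold higher at day 2 than at day 0 were cytokines of other families: Il1b (1.57), Il15 (1.43), a growth factor of lymphocytes that muscle makes, and Il6 (1.17). Over all genes, 2.02% were 2-fold higher in that step. Il6 was below the array median on all 6 arrays, Il1b on 5 and Il15 on 4. Il15 read 7.29, 7.66, 9.09 and 8.99 and stayed high at day 4, while Il6 was lower again by then (-1.12).

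Of 16 receptor and signalling genes, 15 were matched, and none was 2-fold apart after day 0. The receptor chains for type I interferon, Ifnar1 and Ifnar2, read 9.83, 10.34, 10.06 and 9.69, and 9.73, 10.63, 10.73 and 10.61. Those for interferon gamma, Ifngr1 and Ifngr2, read 9.74, 10.24, 10.07 and 10.08, and 9.31, 10.31, 10.29 and 10.48. All 4 were above the array median on all 6 arrays and lower in growth medium than at day 0, and Ifngr2 passed 2-fold in that step (1.005). The list's median difference was 0.49 from growth medium to day 0 and -0.12 from day 0 to day 2. Of 20 sensing and adaptor genes, 15 were matched, 1 of them was 2-fold above its growth medium value at day 0 (Tlr4, 1.01) and none was 2-fold apart later, with a median day 2 difference of -0.08. The medians of the receptor and adaptor lists thus lay on the other side of 0 from that of the members at day 2; the difference between lists was not tested.

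A further list of 45 interferon-induced genes, 40 of them matched, had a median day 2 difference of 0.04. In it 1 gene was 2-fold higher (Lgals3bp, 1.42) and 1 lower (Ifitm1, -1.95), where 2.02% of all genes were higher and 2.19% lower. Lgals3bp, a secreted glycoprotein, read 8.79, 9.90, 11.32 and 10.22 and shared the day 2 high point. Ifitm1, which keeps virus from fusing with membranes, read 10.46, 12.57, 10.62 and 10.16, highest at day 0. From day 0 to day 4, 1 of the 40 was 2-fold higher (Tor3a, 1.13) and 7 were lower, where 2.89% of all genes were higher and 4.22% lower. The 7 were led by Ifitm1 (-2.41), Ube2l6 (-1.67), the conjugating enzyme of Isg15, and Plscr1 (-1.42). Between day 2 and day 4, Ube2l6 (-1.12), Lgals3bp (-1.10) and Plscr1 (-1.03) were lower by 2-fold or more, against 0.616% of all genes. Interferon-induced genes as a class therefore had more than one course here.

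Of 16 other class I genes, 12 were matched, and all 12 were lower at day 4 than at day 2, with a median of -0.33. The heavy chain genes H2-K1 and H2-D1 read 10.57, 10.54, 10.50 and 10.04, and 11.62, 12.21, 12.002 and 11.69; they are near-identical to other class I genes, so their values are uncertain. One of the 12, the proteasome activator Psme1, was 2-fold lower at day 4 than at day 0 (-1.10). No gene of the class II list, of which 6 of 7 were matched, was 2-fold apart in any comparison, and H2-Ab1, H2-Eb1, H2-DMa and Ciita were below the array median on all 6 arrays. The 14 constitutive proteasome subunits were all within 2-fold, with a median day 2 difference of -0.19. Of the reference genes, 11 of 12 were matched and 1, Polr2a, was 2-fold lower at day 4 than at day 0.

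The stable lines were compared to ask what the Rp58 hairpin went with at day 0. Of the 45 members, 39 were lower in the shRp58 line than in the control-vector line, against 47.1% of all genes below 0, with a median of -0.30 against 0.01. Ifi27l2a was the one member at least 2-fold lower (2.62-fold) and none was 2-fold higher, where 0.451% of all genes were lower and 0.0385% higher. Oasl2, at -0.999, missed that threshold by less than 0.001 and passed it after median centring. At 1.5-fold, 7 members were lower and none higher, against 1.65% of all genes lower. Of the 31 members among the brighter genes 4 were lower by that much, against 2.38% of those genes.

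The control-vector and shRp58 lines read 9.56 and 8.17 for Ifi27l2a. They read 8.05 and 7.05 for Oasl2, the upper value above and the lower one just below the array median of 7.15. For Ifit1 the pair was 8.61 and 7.68, and for Usp18 it was 8.23 and 7.33. These 4 genes had the largest differences of the set, from -1.39 (Ifi27l2a) to -0.90 (Usp18). Bst2 read 8.29 and 7.54, Xaf1 10.98 and 10.25 and Ifit3 7.996 and 7.30, which completes the 7 past 1.5-fold. A further probe set for Xaf1 gave -0.091, and the mean of its probe sets, -0.41, is short of 1.5-fold. Psmb8 was just short of it, at 7.21 and 6.62, and a further probe set for it gave 0.24, so its direction depends on the probe set.

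By role, all 4 transcription factors were lower with shRp58 (median -0.44), led by Stat2 (-0.53) and Irf9 (-0.49), with Irf7 at -0.38 and Irf1 at -0.12. All 4 ADP-ribosylation genes were lower (median -0.37), from -0.48 for Dtx3l to -0.30 for Parp12, as were both genes of the Isg15 and ubiquitin group and, on the probe sets read, all 5 antigen presentation genes (median -0.22), B2m among them at 13.82 and 13.60. Of the 6 GTPases 5 were lower, from -0.46 for Gbp3 to -0.32 for Irgm1, with Gbp7 at 0.046. Of the 11 RNA effectors 8 were lower, among them Oas1a (-0.42), Eif2ak2 (-0.34) and Oas2 (-0.15), and of the 10 other antiviral genes 9 were, among them Rtp4 (-0.31), Phf11d (-0.26) and Mx1 (-0.22), with Rsad2 at -0.029. The sensors Ifih1 (-0.29) and Ddx58 (-0.25) were lower as well. The 6 members that were higher with shRp58 were Dhx58 (0.33), Oas3 (0.20), Oasl1 (0.15), Gbp7, Ifit2 (0.039) and Mx2 (0.016). The 2 further probe sets for Dhx58 were lower with shRp58 (-0.38 and -0.30), as was that for Gbp7 (-0.60). Conversely, at least 1 further probe set was higher with shRp58 for Rsad2, Rtp4, Dtx3l, Tap1, Psmb8 and Cmpk2, and the mean over the probe sets of Tap1 was 0.048. On the mean of probe sets 39 members were again lower, though not all the same ones. None of the 6 members that were higher with shRp58 was 1.5-fold apart between day 2 and day 0 on the probe sets read.

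Other lists of the pathway lay near 0. The median difference was 0.04 for the receptor and signalling genes, 0.04 for the ligands, 0.02 for the sensing and adaptor genes and -0.02 for the 40 further interferon-induced genes. None of the ligands or receptors was 2-fold apart. Ifnar1 read 9.17 and 9.15, Ifnar2 10.09 and 9.87 and Ifnb1 5.47 and 5.72 in the control-vector and shRp58 lines. Among the further interferon-induced genes Plscr2 was 2-fold lower (-1.01), and Lgals3bp differed by -0.78. Other class I genes had a median of -0.18, with H2-D1 at -0.27 and H2-K1 at 0.092. Beside this, 4 of 6 myotube markers were 2-fold lower with shRp58 (median -1.16) and the 4 matched markers of dividing cells were all at least 1.5-fold higher (median 0.87), while the summed leukocyte markers read 10.68 and 10.81. The part of the myotube and dividing-cell markers in the result was not tested.

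Of the 39 members that were lower with the hairpin, 31 (79.5%) were above 0 at day 2, close to the 77.8% of all 45; over all genes the shares were 59.2% and 50%. Across the 45 members, the shRp58 difference and the day 2 difference had a Pearson r of -0.75 and a Spearman rho of -0.71, so members with a large day 2 difference tended to be lower with shRp58. The 2 differences share no array. The same relation held over all genes, with r of -0.60 and rho of -0.33 over 18194 genes, and r of -0.71 and rho of -0.50 over the 11486 brighter ones, so the inverse relation is not particular to interferon-induced genes. Genes are not independent replicates, and each difference carries the noise of its own pair of arrays. Against the difference between day 4 and day 0 the members gave r of -0.24 and rho of -0.27, where all genes gave -0.56 and -0.26. Against day 4 minus day 2 the members gave r of 0.70 and rho of 0.65, where all genes gave -0.19 and -0.046.

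**Figure D3:**
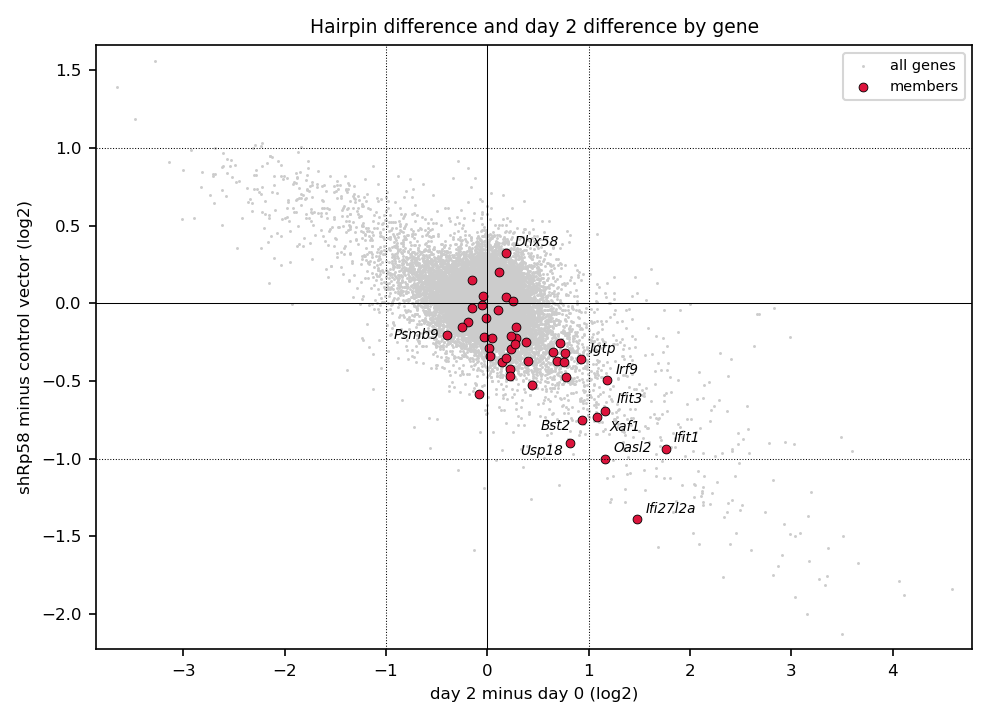
Each point is 1 gene, with day 2 minus day 0 on the horizontal axis and shRp58 minus control vector on the vertical axis (both log2); grey points are all 18194 genes, red points the 45 members, and dotted lines mark 2-fold. The members with the largest day 2 differences lie at the lower right, with Ifi27l2a at 1.48 and -1.39 and Ifit1 at 1.76 and -0.94.

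Relative to other genes, 38 of the 45 members stood higher in the control-vector line, and 32 in the shRp58 line, than in parental day 0 cells. Of all 18194 genes, 9097 did so in each line, by construction. This comparison crosses the 2 scales, was added after the values were seen, and is given only relative to the median of all genes, which was -1.02 for control vector minus day 0 and ran from -1.20 to -0.56 over 20 groups of genes by level. On that footing 13 of the 45 members were at least 2-fold higher in the control-vector line than in parental day 0 cells and none was 2-fold lower, against 1.52% of all genes higher and 1.59% lower. The count was 15 when each gene was set against genes of like level, and 15 after quantile normalization of all 6 arrays. The members' median was 0.44 relative to the median of all genes and 0.48 against genes of like level. For the 11 reference genes these medians were 0.37 and 0.10, and no reference gene was 2-fold apart. The 13 were Phf11d (2.70), Ifit1 (2.69), Ifi27l2a (2.17), Oasl2 (2.07), Usp18 (1.998), Oas1a (1.77), Irf7 (1.63), Irf9 (1.39), Xaf1 (1.31), Ifit3 (1.30), Gbp2 (1.18), Ifih1 (1.07) and Igtp (1.06). In the shRp58 line 6 members were 2-fold above parental day 0, against 0.566% of all genes: Phf11d (2.43), Ifit1 (1.74), Oas1a (1.34), Irf7 (1.25), Usp18 (1.09) and Oasl2 (1.06). The 2 counts share the parental day 0 array.

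Distance from the array's own median shows this gene by gene. Ifit1 stood at -1.32 at day 0 and 0.43 at day 2 in parental cells, and 1.47 and 0.53 in the control-vector and shRp58 lines. Phf11d stood at -1.28 at day 0 and -0.57 at day 2 in parental cells, and 1.52 and 1.26 in the control-vector and shRp58 lines. Oas1a stood at 0.01 at day 0 and 0.22 at day 2 in parental cells, and 1.88 and 1.45 in the control-vector and shRp58 lines. Ifit1 in the shRp58 line thus lay near its parental day 2 height, while Phf11d and Oas1a were higher in both lines than on either parental array. Irf7 stood at -1.30 at day 0 and -1.17 at day 2 in parental cells, and 0.43 and 0.05 in the control-vector and shRp58 lines, and Ifi27l2a at 0.14 at day 0 and 1.61 at day 2 in parental cells, and 2.42 and 1.02 in the control-vector and shRp58 lines. Irf7, Usp18, Gbp2 and Phf11d were below the array median on all 4 time-course arrays and above it in both lines. How many of all genes did so was not counted. Of the 11 interferons and cytokines and the 15 receptor and signalling genes none was past 2-fold in the control-vector line, and Ifnb1 was below the array median in both lines. Of the 40 further interferon-induced genes, 3 were 2-fold higher and 0 lower in the control-vector line (median 0.13). In the shRp58 line 1 of them was higher and 1 lower. Among the 12 other class I genes, 1 was 2-fold higher in the control-vector line and 0 in the shRp58 line. All 6 myotube markers were 2-fold higher in the control-vector line than in parental day 0 cells on the same footing (median 1.62), against none in the shRp58 line. The 4 markers of dividing cells were all lower in the control-vector line on that footing, from -0.88 to -0.53 with a median of -0.82, and had a median of 0.04 in the shRp58 line. The part of both marker lists in the result was not tested. Transfection, G418 selection, the passage of the lines and the scale of the arrays all differ between the stable lines and the parental cells, and cannot be told apart.

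**Figure D4:**
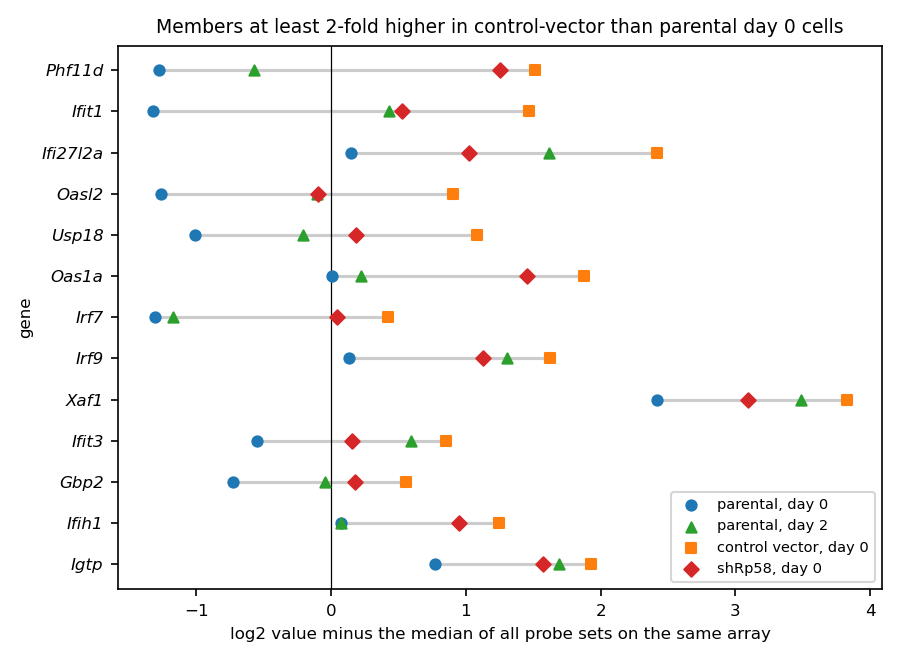
For the 13 members at least 2-fold higher in control-vector than in parental day 0 cells relative to the median of all genes, points give the log2 value minus the median of all probe sets on the same array, for parental day 0 (blue circles), parental day 2 (green triangles), control vector (orange squares) and shRp58 (red diamonds), 1 array each. The orange squares lie to the right of the blue circles because the 13 were chosen by that difference. All 13 also lie to the right of the red diamonds, but choosing on a high control-vector value favours this. Phf11d spans from -1.28 at parental day 0 to 1.52 in the control-vector line.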

How the data were processed

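Total RNA of 6 samples was hybridised to Affymetrix mouse arrays, 10 µg of cRNA each. The authors deposited log2 values from the RMA algorithm, per the series' design text; which software made them, and from which arrays jointly, is not stated. Of 45101 probe sets, 34958 were paired with 1 gene symbol by the platform annotation, 932 with several (not named) and 9211 were not listed there. All 45 members' gene IDs were found in the RefSeq gene table of GRCm38.p6, used for names and neighbours. No filter on levels was set. Differences of log2 values and counts past 2-fold and 1.5-fold were computed with Python 3.11.15, pandas 2.3.3 and numpy 2.4.6, and normalizations with limma 3.58.1 in R 4.3.3; the counting was tested on simulated data. Groups came from the sample titles. With 1 array per group no test was run, and the number of arrays limits precision. All members are named; of the other lists, those 2-fold apart in the comparison described, at most 6, plus receptors, H2-K1 and H2-D1, and further list genes chosen after their values were seen. Members, lists and comparisons were chosen with earlier results of these data known. Alternatives were median centring, quantile and cyclic loess normalization within each set of arrays, the mean of a gene's probe sets, leaving out cross-reacting probe set types, filters on the highest or mean value at 7.95, the median of all values, and the 1.5-fold threshold.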

Additional observations from a re-analysis of the deposited data

How the results depend on the processing

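Of 46 recomputed counts of members whose reported count was above 0, 38 stayed within 1.5 times it; the other 62 recomputed counts had a reported count of 0, and 59 of them were 0 again. The inverse correlation between the shRp58 and day 2 differences ran from -0.81 to -0.73 over 7 settings, which, like those for members above both day 0 and day 4, were added after the data were seen. The median difference between day 4 and day 0, near 0 as reported, was 0.0054 after median centring and 0.0010 when genes were kept on their highest value. With shRp58, 2 members were 2-fold lower after median centring and 2 after cyclic loess normalization, against 1 as deposited. Between day 4 and day 2, 2 members were 2-fold lower, against 4, when genes were kept on their mean value, and 2, against 4, then stood above both day 0 and day 4; 31 members remained under that filter. After quantile normalization within sets those 2 counts were both 3. On the mean of probe sets, added after the data were seen, 1 member, not 2, was 1.5-fold higher at day 4 than at day 0. At the 1.5-fold threshold 5 members were higher at day 0 than in growth medium, and 15 higher at day 2 than at day 0. Against day 0, 2 members were higher and 3 lower at day 4, where 1202 of all 18194 genes were higher and 1908 lower. Against day 2, 13 were lower at day 4, and 7 were lower with shRp58 than with the control vector. A lower threshold counts more genes by construction. No array could be left out, and no paired analysis was possible because each group held 1 array. Spread between cultures is unknown, and dim genes limit the sizes given.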
